A study of Arabidopsis thaliana with 24 samples.

Results

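Transcripts of 9 genes for xyloglucan endotransglucosylase/hydrolases (XTHs) were followed in detached leaves of Arabidopsis thaliana. The genes were TCH4 (also XTH22, AT5G57560), XTH15 (AT4G14130), XTH16 (AT3G23730), XTH17 (AT1G65310), XTH18 (AT4G30280), XTH19 (AT4G30290), XTH23 (AT4G25810), XTH24 (AT4G30270) and XTH25 (AT5G57550). They were chosen by name and locus, and all 9 were found among the 37686 loci measured, beside 24 other genes of the XTH family. Leaf blades of the first rosette pair were cut off at the petiole from 12-d-old seedlings. These had grown at 22 °C with 1% sucrose, under 16 h of light and 8 h of darkness a day. The blades were then kept on sucrose-free medium under continuous light. The seedlings were either Col-0, called WT here, or coi1-2, called coi1, which carries a mutation in the gene for the jasmonate receptor COI1. RNA came from entire explants sampled directly (t0), at 10 min and 30 min, and at 1, 2, 4, 8 and 12 h. WT had 1 library at each of the 8 times and coi1 had 2, which makes 24 libraries in all. The labels do not say that the 2 coi1 libraries of a time came from separate plants. P-values within coi1 thus measure the spread between these libraries, which may be technical. Those of the WT time course rest on scatter around a smooth curve, as the labelled WT samples hold no replicates. Those for genotype mix the spread between coi1 libraries with departures from the fitted model.

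Xyloglucan is the main hemicellulose of growing dicot cell walls and ties cellulose microfibrils together. XTH enzymes cut a xyloglucan chain and join the cut end to another chain, or in some members to water, and so remodel the wall while it yields or is built. TCH4 was first known as a gene that responds within minutes to touch, and also to darkness, temperature shock and growth hormones. XTH15 and XTH17 are known for a part in shade-induced petiole growth, and XTH19, with XTH20, for a part in the reunion of cut stems.

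The member genes shared the stretch of coding sequence around the active site, which is shown for all 9 because the reaction of the enzyme family takes place there. Each line is 36 coding bases read 5′ to 3′ from the annotation of TAIR10.1 by RefSeq, and capitals mark the codons of the 3 acidic residues of the active site.
TCH4: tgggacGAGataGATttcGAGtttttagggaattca
XTH15: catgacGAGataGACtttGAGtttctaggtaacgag
XTH16: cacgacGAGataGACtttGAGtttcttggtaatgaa
XTH17: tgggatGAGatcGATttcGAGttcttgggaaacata
XTH18: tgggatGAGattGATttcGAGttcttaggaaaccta
XTH19: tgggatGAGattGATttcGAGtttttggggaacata
XTH23: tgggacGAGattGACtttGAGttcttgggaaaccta
XTH24: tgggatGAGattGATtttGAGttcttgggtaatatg
XTH25: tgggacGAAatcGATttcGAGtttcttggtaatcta
Relative to TCH4, the other 8 members differed at 6 (XTH19) to 11 (XTH15) of these bases. Predicted protein identity, from translated coding sequences, was highest between XTH18 and XTH19 at 90.4%. It was 86.5% between XTH17 and XTH18, 84.6% between XTH15 and XTH16, and 82.3% between TCH4 and XTH23, and lowest between XTH16 and XTH17 at 49.1%. Coding sequences of XTH18 and XTH19 were 87.8% identical. How the authors' counting shared out reads that fit several of these genes was not given in the sources used here, so values of the closest pairs are uncertain in that respect.

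Several members lie next to each other. XTH24, XTH18 and XTH19 follow one another on chromosome 4, with 5161 and 1500 bases between them and no other protein-coding gene. XTH25 and TCH4 lie 565 bases apart on chromosome 5, and XTH25 lies 686 bases from XTH13, which was listed at 0 in every library. XTH23 lies 363 bases from XTH14 on chromosome 4, and XTH14 did not exceed 0.04 TPM. TCH4 has 2 coding exons in this annotation and the other members have 3.

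The bases before the transcription start are shown for 4 members whose levels were alike, with Pearson's r between 0.826 and 0.941 for each pair over the 24 libraries. XTH17 lies on chromosome 1 and XTH18 on chromosome 4, yet they shared an ungapped stretch that ran from 86 bases before the start to the end of the window 50 bases after it. Over 136 bases it was 95.6% identical. Members were compared only at equal distances from the start, and the next longest such stretch in any of the 36 pairs was 9 bases long. The 86 bases before the start, of which 84 are identical, are in capitals here, each line being the 250 bases before the start in TAIR10.1.
XTH17, chr1:24256804-24257053, plus strand: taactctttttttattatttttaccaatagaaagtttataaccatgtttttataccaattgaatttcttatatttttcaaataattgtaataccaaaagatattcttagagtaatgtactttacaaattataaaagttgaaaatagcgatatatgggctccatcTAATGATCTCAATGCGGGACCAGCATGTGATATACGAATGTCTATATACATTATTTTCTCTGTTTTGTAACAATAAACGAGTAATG
XTH18, chr4:14827212-14827461, minus strand: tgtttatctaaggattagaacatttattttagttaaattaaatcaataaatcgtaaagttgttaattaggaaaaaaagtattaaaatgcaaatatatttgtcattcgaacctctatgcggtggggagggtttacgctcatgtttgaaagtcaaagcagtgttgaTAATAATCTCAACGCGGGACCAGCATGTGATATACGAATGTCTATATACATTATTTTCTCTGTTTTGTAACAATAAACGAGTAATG
TCH4 and XTH19 had no such stretch in common with them at equal distance from the start. Shifted matches were not searched for, and the lines of XTH18 and XTH19 do hold matching runs at shifted positions. In the lines for TCH4 and XTH19 the capitals mark TTGAC, the core of the W-box, or its reverse complement GTCAA.
TCH4, chr5:23308681-23308930, minus strand: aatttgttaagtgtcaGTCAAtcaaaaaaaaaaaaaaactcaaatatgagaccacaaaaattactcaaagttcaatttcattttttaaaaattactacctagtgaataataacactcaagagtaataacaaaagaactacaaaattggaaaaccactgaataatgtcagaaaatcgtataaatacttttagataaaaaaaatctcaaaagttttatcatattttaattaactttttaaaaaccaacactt
XTH19, chr4:14830225-14830474, minus strand: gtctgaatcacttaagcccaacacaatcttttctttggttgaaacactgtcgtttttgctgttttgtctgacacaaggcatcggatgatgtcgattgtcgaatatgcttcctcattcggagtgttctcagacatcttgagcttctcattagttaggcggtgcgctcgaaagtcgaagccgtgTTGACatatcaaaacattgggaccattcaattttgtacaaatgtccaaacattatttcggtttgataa
Windows from 250 bases before to 50 after the start were searched on both strands for 9 motifs. TTGAC was in 6 of the 9 members (all but XTH16, XTH17 and XTH24) and in 50.5% of 27443 such windows of protein-coding genes. TATAAA was in 6 members (all but XTH15, XTH18 and XTH19), against 52.1%. CGTGTG was in XTH23 and XTH25, against 6.52%, and CGCGTT was in XTH18, against 3.4%. The CGCGTT match of XTH18 lies within the stretch shared with XTH17. It covers a base that differs between them, so XTH17 lacks the motif. CACGTG, the G-box, was in none of the 9 and in 7.68% of all windows. None of ACGCGT (2.1%), CGTGCG (1.96%), TGTCTC (14.2%) and TGTCGG (5.12%) was in a member.

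Levels are given in TPM, a transcript abundance that is corrected for transcript length and adds up to the same total in every library. Read depth was not among the deposited values, so no counting interval can be given. Changes are differences of log2(TPM + 1), which understate the change of genes at low levels. The number of genes at 1 TPM or more ranged from 17019 to 17840 per library. Of the markers of other organs, STM, WUS and CLV3 of the shoot meristem and WOX5 and COBL9 of the root stayed under 1 TPM in every library. The other 2 of the 4 root markers did not, with PYK10 at 4.45 to 150.83 TPM in WT and 3.82 to 21.95 TPM in coi1, and CASP1 at up to 0.65 TPM in WT and 1.22 TPM in coi1. As for the leaf, 5 mesophyll markers summed to between 30647 and 61225 TPM. COI1 was at 8.65 to 25.95 TPM in WT and 13.1 to 23.3 TPM in coi1, so the ranges overlapped. Over 10 min, 30 min and 1 h it was higher in coi1 by 0.51 ± 0.12 log2 units (limma, adjusted p 0.00917), and its transcript level is no check of the labels. Time after detachment cannot be told apart from time of day, the move to medium without sucrose or continuous light, and genotype cannot be told apart from the table that held its values. In whole leaves, a change in the number of cells of a type and a change in RNA per cell cannot be told apart either.

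The coi1 t0 libraries stood apart from each other in several of these genes. TCH4 was at 578 TPM in replicate 1 and 4.37 TPM in replicate 2. XTH18 was at 26.2 and 0.03 TPM in the same libraries, XTH23 at 3.86 and 0.03 TPM, and XTH19 at 1.80 and 0.03 TPM. Other touch-inducible genes differed in the same direction, with TCH3 at 1393 and 17.2 TPM and TCH2 at 501 and 31.0 TPM. The root mean square difference between the t0 libraries over all genes was 0.691 (log2 scale), larger than at the other times (0.319 to 0.501) except 30 min, where it was 1.039. Calls against t0 that ended or turned when a t0 library was left out are named with the results; what made the libraries differ was not tested.

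In WT, the summed level of the 9 genes was highest at 1 h. It was 115 TPM at t0, 553 TPM at 10 min, 842 TPM at 30 min and 2414 TPM at 1 h, and then 62.8 TPM at 2 h, 108 TPM at 4 h, 41.8 TPM at 8 h and 84.0 TPM at 12 h. At 1 h the 9 genes held 81.8% of the TPM of all 33 XTH genes, against 9.52% at t0. In the same WT libraries the 24 other family members together were at 1093 TPM at t0, 410 TPM at 30 min, 537 TPM at 1 h and 987 TPM at 2 h. In coi1 the members summed to 1656 and 1859 TPM at 1 h and still to 482 and 402 TPM at 2 h. The t0 libraries of coi1 were at 646 and 39.6 TPM. The other family members of coi1 did not follow the WT order, with 822 and 753 TPM at t0, 652 and 742 TPM at 10 min, and 1142 and 1367 TPM at 1 h.

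**Figure D1:**
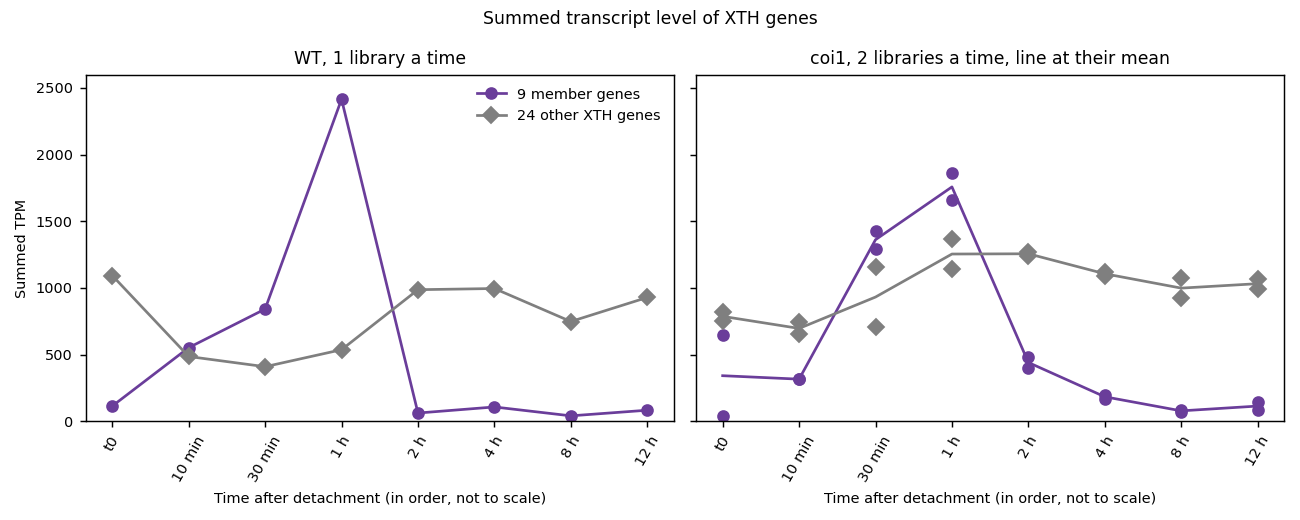
Summed TPM (vertical axis, linear, from 0) of the 9 member genes and of the 24 other XTH genes at each time, in WT (left, 1 library a time) and coi1 (right, 2 libraries a time with a line at their mean). The member sum is highest at 1 h in both panels, at 2414 TPM in WT and 1656 and 1859 TPM in coi1.

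TCH4 made up most of the sum at 10 and 30 min. In WT it was at 35.6 TPM at t0, 501 TPM at 10 min, 658 TPM at 30 min and 1197 TPM at 1 h, followed by 3.48, 9.25, 3.64 and 2.69 TPM at 2, 4, 8 and 12 h. The value at 1 h was 344 times that at 2 h, and TCH4 alone was 90.7% of the member sum at 10 min. In coi1 the 2 libraries were at 277 and 275 TPM at 10 min, 1098 and 661 TPM at 30 min, and 386 and 789 TPM at 1 h. They were at 44.8 and 57.0 TPM at 2 h, 26.7 and 26.7 TPM at 4 h, 8.59 and 5.66 TPM at 8 h, and 4.83 and 13.0 TPM at 12 h. The coi1 libraries at 10 min, 30 min and 1 h were thus all above every library from 2 h on, and the ranges at 30 min and 1 h overlapped.

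XTH18 and XTH19, the tandem pair, were at a smaller fraction of their 1 h level than TCH4 at 10 min in WT. In WT, XTH18 was at 0.25 TPM at t0, 23.1 TPM at 10 min, 117 TPM at 30 min and 673 TPM at 1 h, and then at 1.29, 9.91, 0.52 and 0.68 TPM at 2, 4, 8 and 12 h. In coi1 it was at 21.5 and 17.9 TPM at 10 min, 243 and 175 TPM at 30 min, 290 and 283 TPM at 1 h, and 25.4 and 28.03 TPM at 2 h. Its later coi1 values were between 2.09 and 11.5 TPM. XTH19 was likewise highest at 1 h, at lower values. In WT it was at 2.89 TPM at 10 min, 21.6 TPM at 30 min, 163 TPM at 1 h and 0.21 TPM at 2 h. In coi1 it was at 24.0 and 12.8 TPM at 30 min, 47.8 and 69.8 TPM at 1 h, and 5.47 and 3.94 TPM at 2 h. The coi1 libraries at 1 h were above all other coi1 libraries for both genes, and below the WT library of 1 h.

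XTH17, whose promoter resembles that of XTH18, was below XTH18 at 10 min, 30 min and 1 h in both genotypes. Its highest WT value was 18.95 TPM at 1 h, with 4.42 TPM at t0 and 0.14 TPM at 2 h. In coi1 it was at 9.33 and 12.7 TPM at 30 min and 16.6 and 12.6 TPM at 1 h, ranges that overlap, and at 2.48 and 2.15 TPM at 2 h. XTH23, the closest relative of TCH4, was at 0.58 TPM at t0, 8.69 TPM at 30 min, 106 TPM at 1 h and 3.10 TPM at 2 h in WT. In coi1 it was at 21.4 and 33.3 TPM at 30 min and at 21.9 and 17.2 TPM at 1 h, so the libraries of these times overlapped and both were below the WT value at 1 h.

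XTH15 and its closest relative XTH16 had their highest coi1 values at 1 h. XTH15 was at 49.3 and 112 TPM in the coi1 libraries of 1 h and at 18.4 and 21.8 TPM in those of 2 h. At 30 min the coi1 libraries were at 1.62 and 20.4 TPM, and at t0, 10 min, 4, 8 and 12 h none exceeded 1.83 TPM. No WT library exceeded 0.63 TPM, the highest being that of 8 h. XTH16 was at 148 and 237 TPM in coi1 at 1 h, 106 and 114 TPM at 2 h, and 16.4 and 160 TPM at 30 min. In WT it was at 54.2 TPM at t0, 14.0 TPM at 10 min and 79.6 TPM at 1 h, and at 16.6 to 29.1 TPM from 2 h on. The replicates of 30 min differed by 12.6 times for XTH15 and 9.74 times for XTH16.

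XTH24, also known as MERI5, was the member with the highest level in most libraries from 2 h on. In WT it was at 12.4 TPM at t0, 3.17 TPM at 10 min, 6.55 TPM at 30 min and 167 TPM at 1 h, and then at 37.4, 55.1, 16.5 and 55.4 TPM at 2, 4, 8 and 12 h. In coi1 it was at 7.29 and 1.99 TPM at t0, 15.3 and 220 TPM at 30 min, 696 and 337 TPM at 1 h, and 273 and 169 TPM at 2 h. Later coi1 libraries held 86.6 and 110 TPM at 4 h, 43.6 and 27.0 TPM at 8 h, and 51.3 and 81.6 TPM at 12 h. It was 66.0% of the member sum in WT at 12 h, and 61.2% and 55.8% in the coi1 libraries of that time.

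XTH25 was the weakest member in coi1. In WT it was at 6.61 TPM at t0, 1.09 TPM at 10 min, 1.64 TPM at 30 min and 11.04 TPM at 1 h, and at no more than 0.04 TPM from 2 h on. In coi1 its highest value was 0.97 TPM, in a library of 1 h, and 7 of the 16 libraries listed it at 0. It did not pass the filter of 1 TPM in at least 2 libraries of coi1, so 8 of the 9 members were tested there; in WT, XTH15 did not pass.

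**Figure D2:**
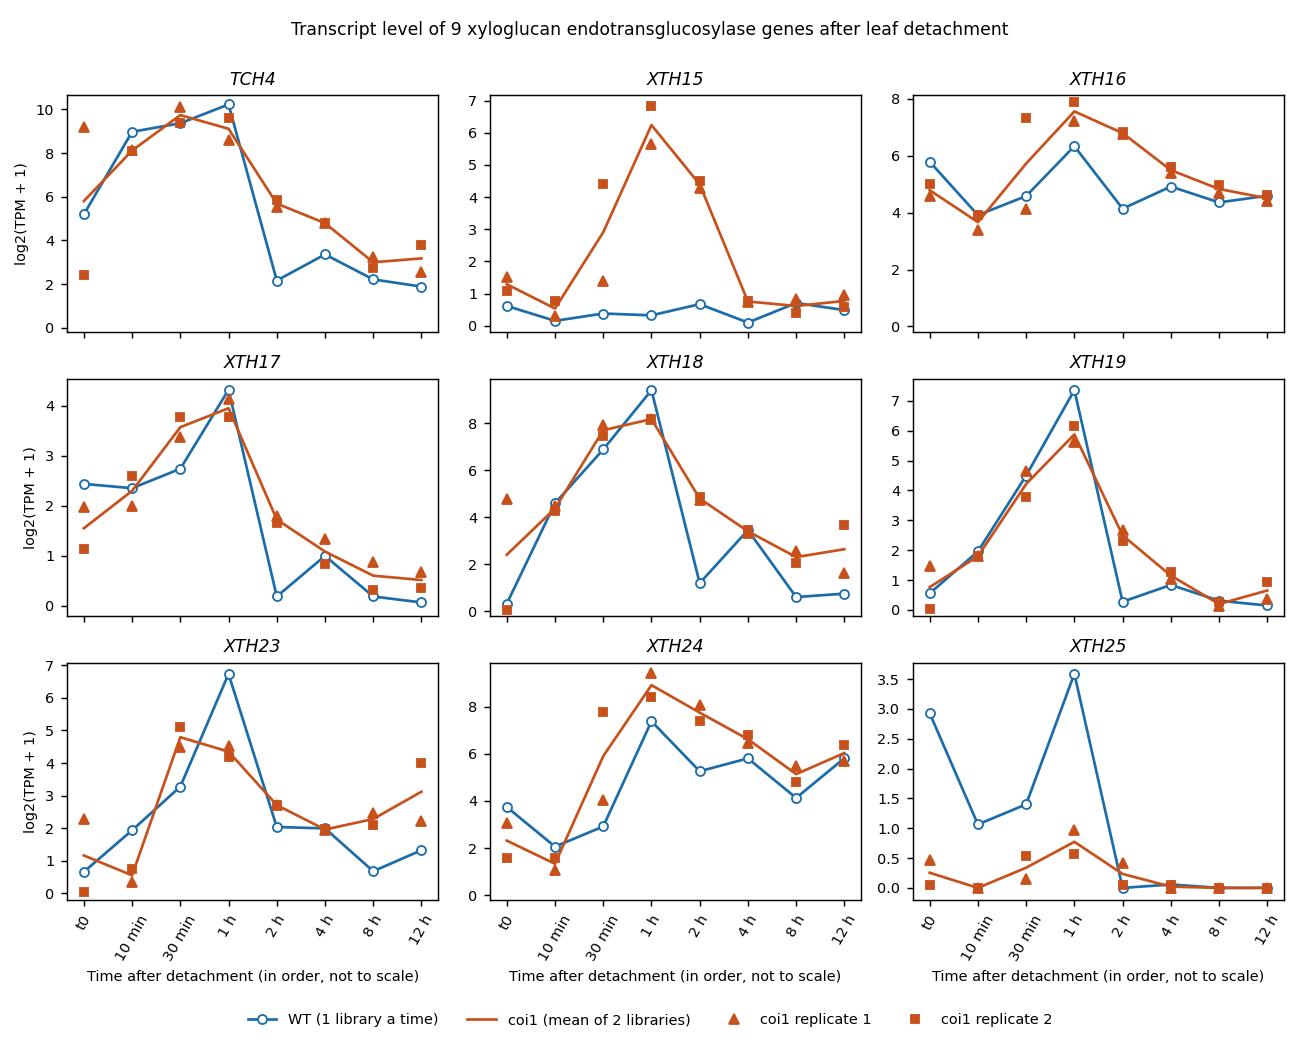
Level of each member gene as log2(TPM + 1) (vertical axes, separate scales) at the 8 times in order (horizontal axes, not to scale), with WT as open circles, 1 library a time, and coi1 as triangles (replicate 1) and squares (replicate 2) with a line at their mean. XTH15 reaches 49.3 and 112 TPM at 1 h in coi1 and at most 0.63 TPM in WT, and XTH25 reaches 11.04 TPM in WT and at most 0.97 TPM in coi1.

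WT libraries have no replicate at a time, and their differences from t0 are described without a test. At 10 min, 4 of the 8 members that passed the filter were at least 2-fold higher than at t0 and 3 were lower by as much, while 4.54% of 18906 genes were higher and 4.2% lower. At 1 h, 6 of 8 were higher and none was lower, against 12.1% higher among all genes, and the member median was 4.34 log2 units beside -0.17 for all genes. The 6 were TCH4 (5.03), XTH17 (1.88), XTH18 (9.07), XTH19 (6.80), XTH23 (6.08) and XTH24 (3.65), each a log2 difference between 1 library and 1 library. At 12 h, 4 of 8 were lower and 1 was higher, and 6.99% of all genes were lower. In the limma F test of the WT time course none of the 8 members was called at an adjusted p under 0.05, as was true of every gene (0% called). At an unadjusted p under 0.05 there were 3 members and 3458 genes. Without the WT library of 2 h 2 members were called, among 801 genes.

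In coi1, the limma F test over all times called each of the 8 members tested, in a background of 58.9% of 19323 genes. At 10 min against t0 no member was called in either direction, where 0.362% of all genes were called higher and 0.171% lower; 2 members and 2209 genes had an unadjusted p under 0.05. Without t0 replicate 1, TCH4 (5.69) and XTH18 (4.32) were called higher at 10 min. At 30 min, 5 members rose, namely XTH18 by 5.29 ± 1.15 (SE, 2 libraries against 2) log2 units with adjusted p 0.0255, XTH23 by 3.63 ± 0.67, XTH24 by 3.59 ± 0.97, XTH19 by 3.45 ± 0.44 and XTH17 by 2.02 ± 0.33. The background at 30 min was 2.76% higher and 6.47% lower, and no member fell. The call of XTH24 at 30 min, with adjusted p 0.0478, ended under 6 of its 11 alternatives. At 30 min XTH18 was at 7.65 without t0 replicate 1 and 2.93 without t0 replicate 2, and XTH23 at 4.75 and 2.51. TCH4 was at 7.31 and 0.56, and was called without t0 replicate 1. With t0 replicate 2 left out only XTH19 was called at 30 min, and with only the 4 libraries compared no member and no gene was.

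At 1 h, 7 of the 8 members rose against t0 and none fell, with 10.7% of all genes called higher and 20.5% lower. The member median was 4.13 log2 units beside -0.17 for all genes. XTH24 rose by 6.61 ± 0.97 log2 units (adjusted p 0.00104), XTH18 by 5.76 ± 1.15 (0.00467), XTH19 by 5.11 ± 0.44 (8.38e-05) and XTH15 by 4.95 ± 0.75 (0.0012). XTH23 rose by 3.19 ± 0.67 log2 units, XTH16 by 2.77 ± 0.75 and XTH17 by 2.40 ± 0.33. The call of XTH16, with adjusted p 0.019, ended when any 1 of the 4 libraries was left out; its adjusted p was then 0.0783 without t0 replicate 1 and 0.0619 without t0 replicate 2. TCH4 was not called, with a difference of 3.31 ± 1.55 log2 units and adjusted p 0.13. Its difference at 1 h was 6.69 with adjusted p 9.8e-05 without t0 replicate 1, and -0.07 without t0 replicate 2. The size for XTH18 ranged from 3.40 to 8.13 and that for XTH23 from 2.07 to 4.31 over the same choices, past the threshold in both, but XTH18 and XTH23 were not called when only the 4 libraries compared were used. Cell type markers moved at 1 h as well, with 2 of 5 mesophyll and 2 of 3 epidermis markers called higher, and 2 of 5 vascular and 2 of 4 root markers called lower. None of 3 guard cell markers was called, and the part of these markers in the members' change was not tested.

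**Figure D3:**
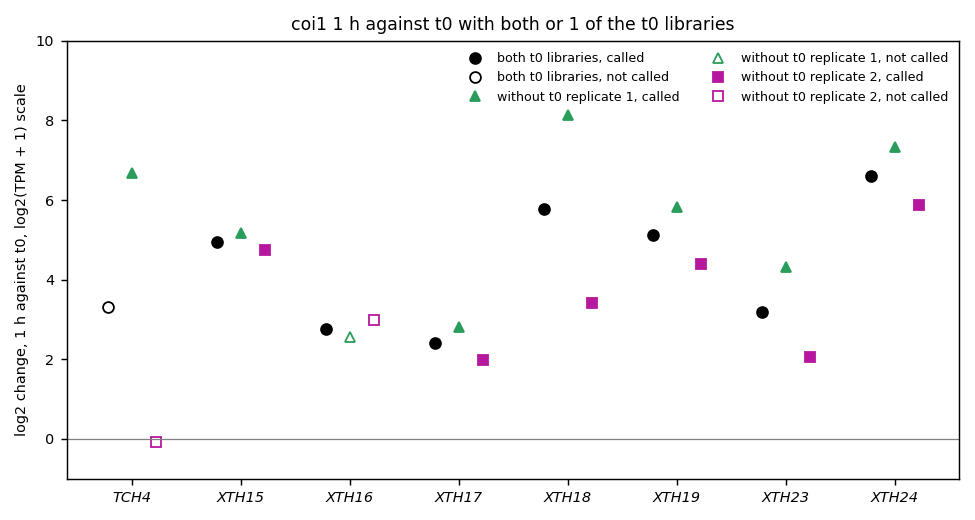
Change in coi1 at 1 h against t0 (vertical axis, log2 units on the log2(TPM + 1) scale) for the 8 members tested, with both t0 libraries (circles) and without replicate 1 (triangles) or 2 (squares); filled symbols are called. TCH4 moves from 6.69 to -0.07 with the choice of t0 library, while XTH15 stays between 4.74 and 5.16.

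Fewer members were called at later times. At 2 h, 3 members were still above t0, namely XTH24 by 5.44 ± 0.97 log2 units, XTH15 by 3.11 ± 0.75 and XTH19 by 1.74 ± 0.44, with a background of 13.2% higher and 12.4% lower. The calls of XTH15 and XTH19 at 2 h ended without t0 replicate 2 or 2 h replicate 1, and without t0 replicate 1 there were 6 calls. TCH4 was called in opposite directions at 2 h, higher without t0 replicate 1 (3.26) and lower without t0 replicate 2 (-3.49). At 4 h XTH24 alone was called, at 4.31 ± 0.97 log2 units with adjusted p 0.017 (background 7.39% higher, 6.62% lower). That call ended without t0 replicate 2 or either 4 h library, and without t0 replicate 1 the count was 3. At 4 h TCH4 was again called higher without t0 replicate 1 (2.37) and lower without t0 replicate 2 (-4.39). No member was called at 8 h, where 10.9% of genes were higher and 3.68% lower and 2 members and 5386 genes had an unadjusted p under 0.05. Without t0 replicate 1 there was 1 call at 8 h, XTH23 higher, and without t0 replicate 2 there were 3, with TCH4, XTH17 and XTH18 lower. At 12 h XTH24 was higher by 3.72 ± 0.97 log2 units (adjusted p 0.0208) and XTH17 was lower, at -1.03 ± 0.33 (0.0484), with backgrounds of 15.5% higher and 6.13% lower. The call of XTH17 ended under 7 of 11 alternatives, and that of XTH24 ended without t0 replicate 2 or either 12 h library. Without t0 replicate 1, XTH18, XTH23 and XTH24 were called higher at 12 h, and without t0 replicate 2, TCH4, XTH17 and XTH18 were called lower.

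A comparison that uses no t0 library set the mean of 4, 8 and 12 h against the mean of 10 min, 30 min and 1 h in coi1. Of the 8 members tested 5 fell and none rose, in a background of 12% of genes lower and 38.2% higher. TCH4 fell by 5.33 ± 0.90 log2 units (adjusted p 0.000798), XTH18 by 3.96 ± 0.66 (0.000782), XTH19 by 3.30 ± 0.25 (5.61e-06), XTH17 by 2.54 ± 0.19 (5.05e-06) and XTH15 by 2.51 ± 0.43 (0.000936). Each of these 5 calls was kept under all 22 alternatives. XTH23 (-0.78 ± 0.39), XTH16 (-0.71 ± 0.43) and XTH24 (0.55 ± 0.56) were not called. XTH24 was at 27.0 to 110 TPM in the late libraries and at 1.1 to 696 TPM in the early ones, with its lowest values at 10 min.

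The step from 1 h to 2 h was larger in WT than in coi1 for each member with a ratio in both. The level at 1 h divided by that at 2 h was 344 for TCH4 in WT and 11.6 in coi1 (ratio of means). For XTH18 it was 521 and 10.7, for XTH23 34.1 and 3.53, for XTH16 4.79 and 1.75, and for XTH24 4.45 and 2.33. At 2 h the coi1 mean was 14.6 times the WT value for TCH4, 20.7 times for XTH18, 6.62 times for XTH16 and 5.92 times for XTH24. Both coi1 libraries of 2 h were above the single WT library for all 9 members. WT has 1 library at 2 h, so these ratios carry no test.

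Genotype differences were tested over periods, since WT has no replicate at a time. Over 10 min, 30 min and 1 h, XTH15 was higher in coi1 by 2.94 ± 0.75 log2 units (adjusted p 0.0163) and XTH25 was lower, at -1.65 ± 0.25 (0.000943). XTH15 passed the filter through coi1 alone, with 8 of 16 coi1 and 0 of 8 WT libraries at 1 TPM or more. XTH25 passed through WT alone, with 4 of 8 WT and 0 of 16 coi1 libraries. Genes that enter a test in this way had to differ, so these calls are a description and no support for a genotype difference. The other 7 members were not called, and the background was 7.34% higher and 11.1% lower of 19757 genes. With 1 coi1 replicate number alone, XTH15 was at 2.16 or 3.73 and XTH25 at -1.64 or -1.65, and neither was called. The XTH15 call also ended without the WT library of 30 min, and without that of 1 h, where the difference was 1.46. Over 4, 8 and 12 h no member was called, with 0.197% of genes higher and 0.8% lower, and no member but 2011 genes had an unadjusted p under 0.05. Among the late differences the highest were 1.18 ± 0.76 log2 units for XTH18 and 1.17 ± 0.95 for TCH4. Markers of cell types moved with genotype over the same early times. Of 3 guard cell markers KAT1 was called higher in coi1 (0.84 ± 0.24), of 5 vascular markers APL was called lower (-0.61 ± 0.15), and of 4 root markers PYK10 was called higher (1.3 ± 0.15). The sums over all times were 45.2 to 106 TPM in WT and 36.9 to 86.3 TPM in coi1 for guard cells, 185 to 391 and 138 to 316 TPM for vascular tissue, and 4.82 to 150.9 and 5.13 to 22.9 TPM for root. Of 5 mesophyll markers LHCB1.1 (4.44 ± 1.04) and LHCB3 (3.04 ± 0.58) were higher in coi1 and the other 3 were not called, and the sum of the 5 was 34378 to 44832 TPM in WT and 30647 to 61225 TPM in coi1 over all times. Of 3 epidermis markers ATML1 (1.01 ± 0.18) and CER5 (0.74 ± 0.19) were higher in coi1, with sums of 87.9 to 146 TPM and 106 to 274 TPM. Over 4, 8 and 12 h no mesophyll, epidermis, guard cell or vascular marker was called, while 1 root marker was called higher and 1 lower. At 4 h PYK10 was at 150.83 TPM in WT and at 7.46 and 8.02 TPM in coi1. The part of the markers in the genotype results was not tested.

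The late difference minus the early difference was 1.64 ± 0.36 log2 units for XTH25 (adjusted p 0.0324), the member for which this was called. XTH25 was at most 0.04 TPM in both genotypes over 4 to 12 h, so this value restates the early difference and adds nothing to it. Of all genes, 1.56% were called with a positive value and 1.03% with a negative one. That call was kept under 18 of 32 alternatives and ended with no filter and with a filter of 5 TPM. For XTH15 the value was -2.66 ± 1.07 and was not called. Over all times together, XTH15 was higher in coi1 by 1.76 ± 0.54 log2 units (adjusted p 0.0416) and XTH25 was lower, at -0.93 ± 0.28 (0.0423), with backgrounds of 3.87% higher and 8.67% lower. The limit from the filter holds for these overall values too. The calls were kept under 16 and 13 of 32 alternatives, and both ended with no filter. The F test of genotype by time course called none of the 9 members and 0.243% of genes, with no member and 1702 genes at an unadjusted p under 0.05.

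**Figure D4:**
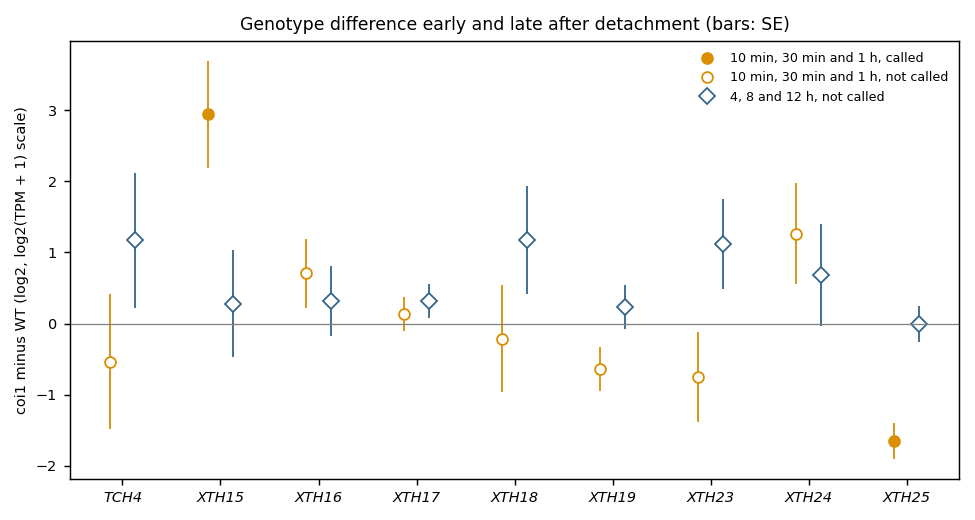
Difference coi1 minus WT (vertical axis, log2 units on the log2(TPM + 1) scale, bars SE) for each member over 10 min, 30 min and 1 h (circles) and over 4, 8 and 12 h (diamonds); filled symbols are called. XTH15 at 2.94 and XTH25 at -1.65 are the called early values, each gene having passed the filter through 1 genotype alone, and no late value is called.

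Likeness of levels among the members was high within some pairs of neighbours or relatives and low within others. Across the 24 libraries Pearson's r on log2(TPM + 1) was 0.941 between the tandem neighbours XTH18 and XTH19, 0.905 between TCH4 and XTH17, 0.881 between TCH4 and XTH18, and 0.834 between XTH15 and XTH16. It was 0.856 between XTH17 and XTH18, whose promoters share the stretch shown above. TCH4 and its closest relative by protein sequence, XTH23, had r of 0.557, and TCH4 and its chromosomal neighbour XTH25 had 0.453. XTH24 had r of 0.377 with XTH18, its neighbour on chromosome 4, and 0.002 with TCH4. These are descriptions over libraries that share times and genotypes.

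The gene most like TCH4 among 13332 others with at least 10 TPM in a library was XXT1 (AT3G62720), with r of 0.994 over 24 libraries. XXT1 encodes a xylosyltransferase that adds the xylose side chains to the glucan backbone of xyloglucan in the Golgi. In WT it was at 19.2 TPM at t0, 59.2 TPM at 10 min, 75.05 TPM at 30 min and 98.8 TPM at 1 h, and at 8.77 to 13.6 TPM from 2 h on. The coi1 t0 libraries were at 62.5 and 10.6 TPM, split as for TCH4. XXT1 in coi1 was at 42.6 and 47.0 TPM at 10 min, 87.3 and 61.6 TPM at 30 min, and 55.8 and 79.0 TPM at 1 h. It fell by 2.21 ± 0.34 log2 units late against early (adjusted p 0.000437). The next by likeness to TCH4 were AT3G10720 (0.973), AT1G69840 (0.961), the arabinogalactan protein gene AGP20 (0.959) and AT2G27080 (0.959).

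**Figure D5:**
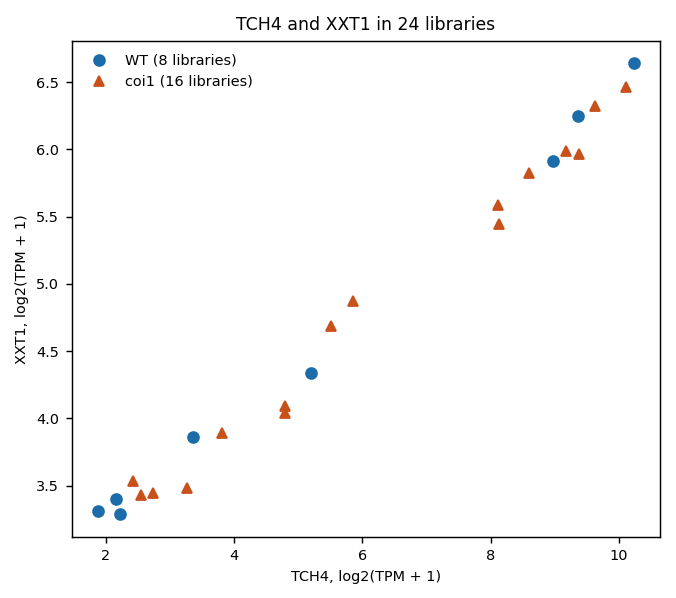
Level of XXT1 against that of TCH4, both as log2(TPM + 1), in the 8 WT libraries (circles) and 16 coi1 libraries (triangles). The points lie close to 1 line, with r of 0.994 over 24 libraries.

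By the same measure the gene most like XTH15 was PAR2 (0.932), a regulator induced by shade, and the one most like XTH17 was the Aux/IAA gene IAA6 (0.949). Those most like the rest were AT2G03640 for XTH16 (0.967), AT2G35290 for XTH18 (0.949), AT4G35110 for XTH19 (0.958), AT5G57010 for XTH23 (0.936), AT2G31730 for XTH24 (0.947) and AT4G15260 for XTH25 (0.824).

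The other 24 XTH genes did not share 1 course. XTH1, XTH2, XTH12, XTH13, XTH21 and XTH26 were listed at 0 in every library, and XTH3 and XTH14 did not exceed 0.04 TPM. Of the 14 tested in coi1, 5 rose and 2 fell at 1 h, where 10.7% of all genes rose and 20.5% fell. XTH33 rose by 3.43 ± 0.72 log2 units, XTH9 by 2.00 ± 0.47 and XTH32 by 1.97 ± 0.55, while XTH31, which encodes an enzyme of the hydrolytic branch, fell by 2.69 ± 0.45. Without t0 replicate 1, 3 rose and 2 fell at 1 h, and without t0 replicate 2 the count was 2 in each direction. Late against early, 7 of 14 rose and 2 fell, beside none and 5 of the 8 members, in the background of 38.2% and 12% given above. XTH31 rose by 2.56 ± 0.26, XTH6 by 1.77 ± 0.59 and XTH20, the partner of XTH19 in stem reunion, by 1.64 ± 0.10, and XTH4 fell by 1.65 ± 0.17. XTH20 passed the coi1 filter through libraries of 4, 8 and 12 h alone. Its call, counted among the 7, is therefore a description and no support for a rise. XTH20 was listed at 0 in all WT and coi1 libraries up to 1 h and was at 1.84 to 2.97 TPM in WT from 2 h on. Its coi1 values were 0.13 and 0.33 TPM at 2 h and 2.28 to 3.52 TPM at 8 and 12 h. Over the first hour 5 of 14 were higher in coi1 and none lower, beside 7.34% and 11.1% of all genes, among them XTH9 by 1.70 ± 0.36, XTH32 by 1.67 ± 0.41 and XTH7 by 0.90 ± 0.18.

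Among genes that make xyloglucan, 4 of 13 tested rose at 1 h in coi1 and none fell, beside 10.7% and 20.5% of all genes. At 2 h 5 rose and none fell, beside 13.2% and 12.4%. CSLC12, a glucan synthase gene, rose by 1.84 ± 0.25 log2 units at 1 h, and the galactosyltransferase gene XLT2 rose by 1.14 ± 0.25. Late against early 3 rose and 4 fell, beside 38.2% and 12% of all genes, with CSLC5 up by 1.14 ± 0.06, CSLC4 down by 1.23 ± 0.28 and XXT1 as given above. Without t0 replicate 1 the count at 1 h was 6, and without t0 replicate 2 it was 1. Of 3 genes that trim xyloglucan, the fucosidase gene AXY8 rose at 30 min, 1 h and 2 h, by 1.93 ± 0.32 log2 units at 1 h, and fell late against early by 1.39 ± 0.18, while XYL1 and BGAL10 were not called in these comparisons. Without t0 replicate 2 the AXY8 calls at 30 min and 2 h ended.

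The 3 touch genes that code for calmodulins or their relatives were all lower late than early in coi1, where 12% of all genes were lower and 38.2% higher. TCH3 fell by 3.37 ± 0.83 log2 units, TCH2 fell by 2.62 ± 0.52 and CAM2 fell by 1.63 ± 0.34. Against t0 at 1 h CAM2 was called higher (2.64 ± 0.59), beside 10.7% of all genes, and without t0 replicate 1 all 3 touch genes were called. Relative to t0 replicate 1, however, TCH3 was lower at 1 h (513 and 539 against 1393 TPM). So was TCH2 (297 and 359 against 501 TPM), while CAM2 was higher (438 and 413 against 165 TPM). In WT, TCH3 was at 254 TPM at t0, 1920 TPM at 1 h and 37.7 TPM at 2 h, with its highest value at 1 h as for TCH4. Of 3 regulators of tissue reunion, ANAC096 rose by 2.49 ± 0.21 log2 units at 1 h and was called at every time from 30 min to 12 h. ANAC071 was called higher at 12 h by 0.92 ± 0.15, at 1.05 and 1.04 TPM, where 15.5% of all genes were called higher. It passed the coi1 filter through the 12 h libraries alone, so that call is a description and no support for a rise. RAP2.6L was lower in coi1 over all times, at -0.43 ± 0.12, where 8.67% of all genes were lower. It passed the filter through WT alone, as no coi1 library exceeded 0.68 TPM. This call is therefore a description and no support for a genotype difference.

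Of 6 brassinosteroid genes 2 fell at 1 h in coi1, the biosynthesis gene CPD by 1.12 ± 0.20 log2 units and the inactivation gene BAS1 by 1.05 ± 0.28, where 20.5% of all genes fell. Without t0 replicate 1, 1 rose and 2 fell at 1 h, and without t0 replicate 2, 1 fell. Over the first hour, BR6OX2, which catalyses the last steps of brassinolide synthesis, was higher in coi1 by 2.53 ± 0.38 and CPD by 0.70 ± 0.14. In WT, BR6OX2 was at 20.1 TPM at t0, 0.38 TPM at 30 min and 26.2 TPM at 2 h.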

How the data were processed

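RNA was sequenced from whole leaf explants. The deposited TPM values had been made by the authors with RSEM 1.3.2, STAR 2.7.2b and Trim Galore 0.5.0 on TAIR10, according to the submitters' processing notes; parameters, strand setting and annotation version were not given in the sources used here. TPM has 2 decimals in 1 table per genotype, and each of the 24 columns used sums to 1000000 within rounding, so depth is unknown. Another 8 WT columns, with names that end in _2, matched no sample label and were used in no step.

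Members, lists, tests and the rule for named genes (all members, COI1, up to 4 called genes per list with the greatest coi1 change, and the genes most like each member by Pearson's r) were chosen with earlier results of these data known. List genes named beyond this rule, and the marker genes, were chosen after their values were seen. Models were fitted in limma 3.58.1 (R 4.3.3) to log2(TPM + 1), with eBayes and trend. Genes had to reach 1 TPM in 2 or more of the libraries fitted, and were called below 0.05 after Benjamini-Hochberg adjustment over every gene tested. Residual degrees of freedom were 8 for coi1, 4 for the WT spline (3 degrees of freedom over the order of times), 15 for genotype, 12 for genotype by period and 16 for genotype by spline. The fits were tested on simulated data with independent noise and, for each gene, the same spread in every library. The larger differences between the coi1 libraries at t0 and 30 min were not part of that simulation. Alternatives were a pseudocount of 0.1, no filter, a filter of 5 TPM, median-of-ratios rescaling, no trend, a replicate block, fewer libraries, a spline with 2 degrees of freedom, and each library left out; list counts without a coi1 t0 library were added after seeing the data.

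Sequences and gene models are RefSeq's for TAIR10.1, found by locus in that annotation. The deposited tables hold no coordinates, so none were converted.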

Additional observations from a re-analysis of the deposited data

Results flagged for a closer look

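The genotype difference of XTH25 was not the same early and late. It was lower in coi1 over the first hour (-1.65 log2 units) and -0.01 over 4 to 12 h, and the late difference minus the early one was 1.64 with adjusted p 0.0324 in limma, a test of the difference itself. XTH25 passed the filter through WT alone (4 WT and 0 coi1 libraries at 1 TPM or more) and was at most 0.04 TPM in either genotype over 4 to 12 h, so the value restates the early difference and is no support for a second one. The call was kept under 18 of 32 alternatives and ended with no filter and with a filter of 5 TPM.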

How the results depend on the processing

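Over 2454 combinations of a member comparison and an alternative, 2282 kept direction and side of the threshold, 100 lost a call, 30 gained one and 42 changed sign. Depth is unknown, each WT time has 1 library, and values near 0 TPM move with the pseudocount. Members called changed as follows; the cause was not tested. At 30 min there were 3 with no filter and 0 with only the 4 libraries compared. At 4 h there were 0 with no filter. At 12 h there were 0 with no filter, and 1 with the 5 TPM filter, with rescaling and with only 4 libraries. For genotype over all times there was 1 with pseudocount 0.1 and 1 with the 5 TPM filter, and 0 with no filter and with either coi1 replicate number alone. For the early period there were 0 with either number alone, and for late minus early 0 with either number alone, with no filter and with the 5 TPM filter. Same-numbered coi1 libraries deviated together at some pairs of times only. Correlations ran from -0.313 to 0.497, the latter between 1 h and 2 h, over 28 pairs of times, 7 of them over 0.1. The numbers were therefore not taken to pair the libraries. The replicate block left 0 members called for genotype, and 4 at 30 min and at 2 h.

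Leaving out 1 library gave 0 to 2 members at 10 min, 1 to 7 at 30 min, 1 to 6 at 2 h, 0 to 3 at 4, 8 and 12 h, 0 to 2 for the WT time course, 0 to 2 for genotype, 1 to 3 for the early period and 0 to 2 for late minus early. TCH4 then ranged from -1.06 to 5.69 at 10 min, -0.067 to 6.69 at 1 h, -3.49 to 3.26 at 2 h, -4.39 to 2.37 at 4 h, -6.18 to 0.57 after 8 h and -6.00 to 0.75 after 12 h (log2 against t0). Its 2 h and 4 h values were called at both ends, higher without t0 replicate 1 and lower without t0 replicate 2. For XTH18 the range was -0.40 to 4.32 at 10 min, -1.37 to 3.36 at 4 h, -2.46 to 2.26 after 8 h and -2.13 to 2.59 after 12 h. XTH23 ranged from -1.73 to 0.51 at 10 min and -0.32 to 1.92 at 4 h, XTH16 from -0.67 to 2.54 at 30 min and -0.16 to 0.25 at 8 h, and XTH17 from -0.24 to 0.59 at 2 h. For XTH19 the range was -0.33 to 1.11 at 4 h, -1.29 to 0.16 after 8 h and -0.83 to 0.61 after 12 h, and XTH24 late against early from -0.078 to 1.18. The genotype difference ranged from -0.14 to 0.38 for XTH19 over all times. Early it ranged from -0.21 to 0.39 for XTH17, -0.73 to 0.30 for XTH18 and -1.88 to 0.067 for XTH23, and late from -0.018 to 0 for XTH25. Late minus early ranged from -0.86 to 0.091 for XTH16, -0.072 to 0.53 for XTH17 and -1.58 to 0.28 for XTH24.

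Signs also changed, without a call, for XTH16 at 8 h with rescaling (-0.10), XTH18 at 8 h (1.12) and XTH19 at 12 h (0.33) with pseudocount 0.1, and XTH16 with coi1 replicate 1 alone early (-0.028) and late minus early (0.23). XTH17 late minus early was -0.15 with replicate 2 alone. With the replicate block XTH18 early was 0.020, and late XTH16 was -0.030 and XTH25 0.036.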
